A study of Mus musculus with 12 samples.

Results

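The Schlafen family was examined in bone marrow-derived macrophages as the 7 genes whose symbols in the expression table are Slfn1, Slfn2, Slfn3, Slfn4, Slfn5, Slfn8 and Slfn9, out of 55335 genes in all. Macrophages were grown with M-CSF from the marrow of wild-type and Nlrp3-/- mice on the C57BL/6 background, 8 weeks old, the latter lacking Nlrp3 in the whole body. NLRP3 is the sensor protein of an inflammasome, the complex that activates caspase-1. The cells were either left as controls or given LPS, a bacterial outer membrane component sensed by Toll-like receptor 4, followed by ATP, which triggers NLRP3 assembly in primed macrophages. This gave 4 groups of 3 libraries, 12 in all, namely wild-type control, wild-type with LPS+ATP, Nlrp3-/- control and Nlrp3-/- with LPS+ATP. The labels put LPS at 4 hours and ATP at 30 minutes, whereas the written methods give longer exposures, so the time of stimulation is uncertain. Nothing in the labels says that the libraries of a group came from separate mice, so p-values measure only the spread between these libraries, which may be technical. Values are FPKM, fragments scaled to transcript length and library size, which allows levels of different genes to be compared per length.

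Schlafen proteins share an N-terminal core domain, and several of them cut or bind transfer RNA. The mouse family falls into short members (Slfn1 and Slfn2), intermediate members (Slfn3 and Slfn4) and long members (Slfn5, Slfn8 and Slfn9), the last of which add a helicase-like C-terminal region. They are known as interferon-induced genes of immune cells. In macrophages LPS acts through TRIF and IRF3 to induce interferon-β, and secreted interferon then signals through JAK kinases to genes with an interferon-stimulated response element.

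All 7 members lie in 1 cluster of 264 kb on chromosome 11, at chr11:82951349-83215154 in the GRCm38 build, 23.4 Mb from Nlrp3 on the same chromosome. In GENCODE M21 the order along the chromosome is Slfn5 (82951349 to 82964840, plus strand), Slfn9 (82978390 to 82991830, minus strand), Slfn8 (83002158 to 83020810, minus strand), Slfn2 (83065112 to 83070678, plus strand), Slfn1 (83116849 to 83122670, plus strand), Slfn4 (83175186 to 83190216, plus strand) and Slfn3 (83191330 to 83215154, plus strand). The coding sequences are 337 codons long in Slfn1 and 378 in Slfn2, 640 in Slfn3 and 602 in Slfn4, and 884 in Slfn5 and 910 in both Slfn8 and Slfn9. Within the intermediate class the coding sequences of Slfn3 and Slfn4 were identical at 92.2% of aligned bases, and within the long class those of Slfn8 and Slfn9 at 92.7%, against 61.2% to 76.9% for every other pair. Reads from such copies can be assigned to either gene. Of all stretches of 50 bases in the Slfn3 transcripts, 16.0% also occur in transcripts of other genes, and the share is 14.6% in Slfn8, 11.9% in Slfn9, 11.3% in Slfn4, 11.1% in Slfn5, 4.27% in Slfn2 and 0.606% in Slfn1. Not all of these other genes are Schlafen members. The gene sharing most was Slfn4 for Slfn3 (7.39%) and Slfn3 for Slfn4 (6.28%). It was the pseudogene Slfn10-ps for Slfn8 (10.1%) and Slfn9 (8.10%), and the antisense RNA Slfn5os for Slfn5 (7.38%). Small differences in Slfn3 therefore stand beside a near-copy, Slfn4, that was far more abundant after LPS+ATP.

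The promoters of the 7 members, all matched to RefSeq (GRCm38.p6), fell into 2 kinds by the motifs in the 250 bases before the start site. The core of the interferon-stimulated response element, spelled GAAANNGAAA and searched on both strands, was found in the long members Slfn5, Slfn8 and Slfn9 and in none of the short or intermediate members, while 2.98% of 32851 such windows held it. The ETS core GGAAGT, present in 19.7% of windows, was found in Slfn1, Slfn2, Slfn3 and Slfn4 and in none of the long members. The AP-1 motif TGANTCA, present in 6.75% of windows, was found in Slfn4 alone, 34 to 28 bases before its start. Neither the GAS motif TTCNNNGAA (7.02% of windows) nor the kB motif GGGNNNTTCC (4.65%) was found in any member, which says only that these letters are not in these windows. The ETS and AP-1 motifs were chosen after the sequences had been seen, and a match is not evidence of binding. The windows of the members that rose most, Slfn4 and Slfn1, and of the near-copies Slfn8 and Slfn9 are given below from the strand of the gene, 5′ to 3′, with the ETS core (Slfn1 and Slfn4) or the response element core (Slfn8, Slfn9 and the 30 bases of Slfn5) in capitals, here in each case as it reads on that strand.
Slfn1: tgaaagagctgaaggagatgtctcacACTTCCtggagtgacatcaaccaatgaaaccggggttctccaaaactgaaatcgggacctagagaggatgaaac
Slfn4: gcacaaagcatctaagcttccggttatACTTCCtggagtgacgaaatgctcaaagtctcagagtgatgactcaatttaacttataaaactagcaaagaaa
Slfn5: ccttcaaagtGAAAAAGAAAaaaaaaaaag
Slfn8: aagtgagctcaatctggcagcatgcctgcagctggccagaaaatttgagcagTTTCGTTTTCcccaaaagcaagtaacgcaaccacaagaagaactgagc
Slfn9: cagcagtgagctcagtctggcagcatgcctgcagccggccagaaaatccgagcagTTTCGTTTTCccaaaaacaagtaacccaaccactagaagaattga
These stand at chr11:83116720-83116819 (plus strand, Slfn1), chr11:83175086-83175185 (plus, Slfn4), chr11:82951937-82951966 (plus, Slfn5), chr11:83020811-83020910 (minus, Slfn8) and chr11:82991831-82991930 (minus, Slfn9). Slfn1 and Slfn4 shared an identical run of 15 bases that includes the ETS core. The longest run shared by Slfn8 and Slfn9, of 20 bases, does not include the response element core. A shorter identical run in both holds the whole core with bases on either side. The response element core lies 48 to 39 bases before the start in Slfn8, 45 to 36 in Slfn9 and 155 to 146 in Slfn5. Starts here are those of RefSeq. For Slfn5 the RefSeq start lies 753 bases inside the gene as GENCODE draws it, so its 30 bases fall within that longer gene, in no exon, and for the other 6 members the 2 annotations differ by 29 bases in Slfn1 and by 0 elsewhere.

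The libraries were alike in scale. Summed FPKM was 283278 to 299393 per library, 21122 to 22613 genes were above 0, and the depth estimated from the spacing of low values differed by at most 1.22 times. Nlrp3 was listed at 0 in all 6 Nlrp3-/- libraries and stood at 9.24 to 33.6 FPKM in the 6 wild-type libraries. The macrophage marker list was expressed throughout, with none of its genes at 0. Other cell types' markers moved with genotype. The fibroblast list summed to 157 to 161 FPKM in wild-type and 1164 to 1180 in Nlrp3-/- controls, and the neutrophil and granulocyte precursor list to 243 to 277 and 1450 to 1500. Xist was at most 0.0416 FPKM in the wild-type libraries and 32.8 to 56.3 in the Nlrp3-/- libraries, while the Y-linked Ddx3y was 7.72 to 10.9 and 0, so that the sex of the mice and the genotype cannot be told apart.

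LPS+ATP raised every Schlafen member in both genotypes, and the groups did not overlap for any of them. On the log2(FPKM + 1) scale, a call required an adjusted p under 0.05 and a difference of at least 1. By that rule 5 of 7 members were called higher in wild-type cells, where 8.25% of the 12622 genes tested were called higher, and 7 of 7 in Nlrp3-/- cells, where 6.64% were. Slfn3 and Slfn9 were the members not called in wild-type cells, although both were higher by adjusted p alone, as were 23.3% of all genes tested. The median difference of the members was 1.92 in wild-type and 1.99 in Nlrp3-/- cells, against -0.25 and -0.24 over all genes tested. Non-overlapping higher values were found for 23.9% and 21.8% of all genes tested.

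**Figure D1:**
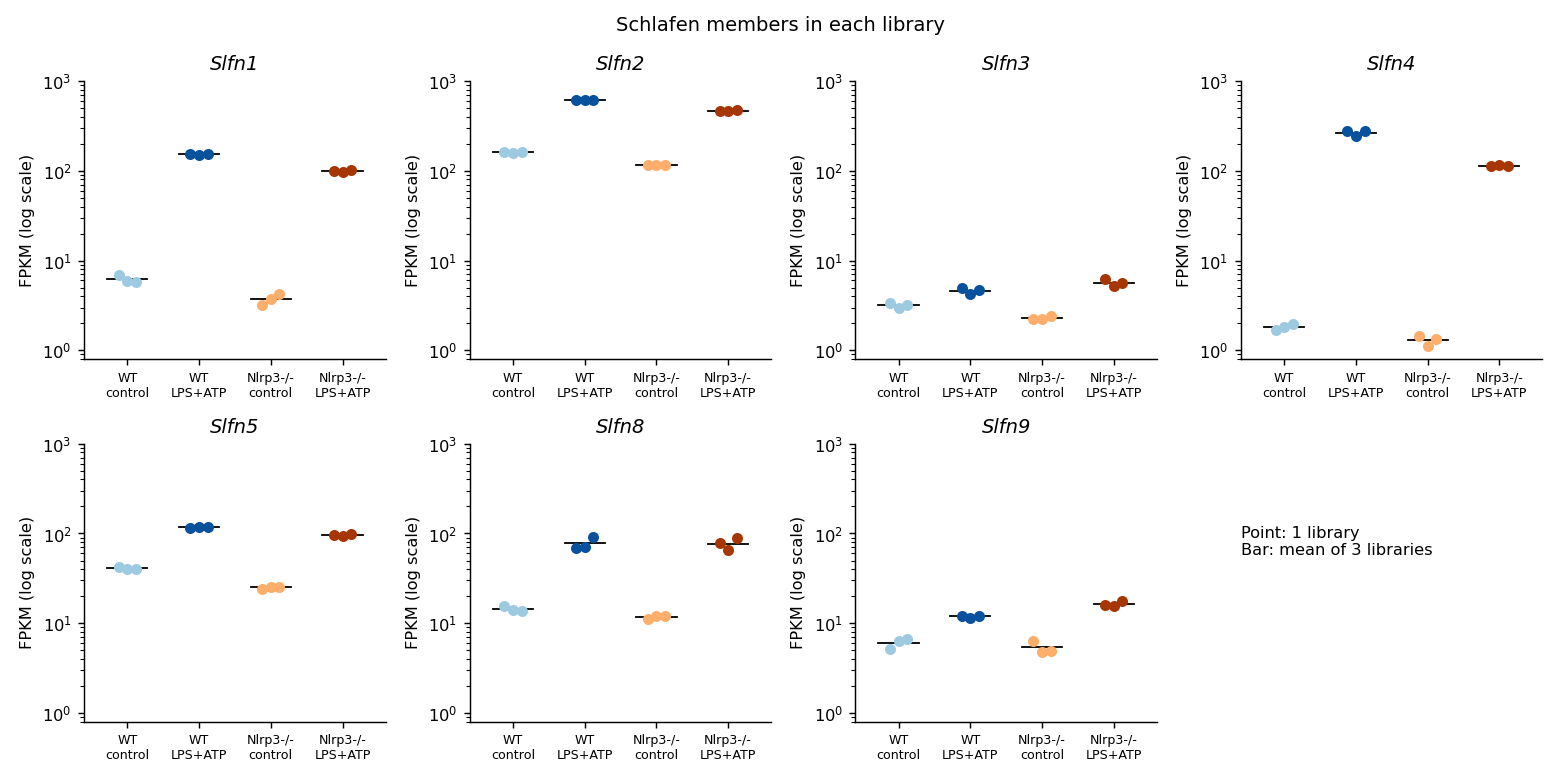
FPKM (log axis) of each Schlafen member in every library, by genotype and treatment, with points for libraries and a bar for the mean of 3. All 7 members sit higher with LPS+ATP than in controls of the same genotype, from 1.45-fold for Slfn3 to 147-fold for Slfn4 in wild-type cells.

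Slfn4, an intermediate member known to be induced during macrophage activation, changed most. It measured 1.68, 1.80 and 1.96 FPKM in wild-type controls and 276, 246 and 279 with LPS+ATP. In Nlrp3-/- cells it measured 1.43, 1.11 and 1.34 and then 112, 115 and 112. It went from the lowest of the 7 members in controls to the second highest after stimulation, in both genotypes. The mean rose 147-fold in wild-type and 87.4-fold in Nlrp3-/- cells, or by 6.57 (SE 0.06, adjusted p = 7.953e-15) and 5.64 (adjusted p = 2.789e-14) on the log2 scale with limma.

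Slfn1, a short member first described for slowing thymocyte growth, came second in fold. Its values were 6.82, 5.92 and 5.79 FPKM in wild-type controls and 153, 151 and 152 with LPS+ATP. In Nlrp3-/- cells they were 3.20, 3.76 and 4.27 and then 99.6, 97.7 and 102. The 2 treatments were far apart and the libraries within each close together. The fold was 24.6 in wild-type and 26.7 in Nlrp3-/- cells, and the log2 difference was 4.42 in both (SE 0.08, adjusted p = 6.213e-13 and 8.089e-13).

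Slfn2, the other short member, which keeps T cells and monocytes quiescent, was the most abundant Schlafen gene in every library. It measured 160, 157 and 163 FPKM in wild-type controls and 607, 611 and 612 with LPS+ATP, and 117, 117 and 116 and then 464, 461 and 478 in Nlrp3-/- cells. The rise was 3.81-fold and 4.00-fold. Log2 differences were 1.92 (adjusted p = 3.182e-14) and 1.99 (adjusted p = 3.205e-14).

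Among the long members, Slfn8 measured 15.4, 14.2 and 13.6 FPKM in wild-type controls and 69.3, 71.4 and 91.5 with LPS+ATP, and 11.2, 12.1 and 12.2 and then 77.6, 65.7 and 88.0 in Nlrp3-/- cells. Its stimulated libraries were scattered, with an SD of 12.3 FPKM in wild-type and 11.2 in Nlrp3-/- cells. Slfn8 rose 5.38-fold and 6.52-fold (log2 2.34 and 2.60, adjusted p = 5.726e-09 and 3.068e-09).

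Slfn5, a nuclear long member, measured 42.6, 40.2 and 40.5 FPKM in wild-type controls and 116, 119 and 119 with LPS+ATP, and 24.2, 25.6 and 25.6 and then 96.6, 94.8 and 98.3 in Nlrp3-/- cells. It was second only to Slfn2 in controls. The fold was 2.87 and 3.84 (log2 1.5 and 1.90, adjusted p = 4.789e-12 and 8.787e-13). An antisense RNA, Slfn5os, overlaps it on the minus strand and was at 0.133 to 1.55 FPKM, and whether counting used strand is not given in the sources used here.

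Slfn9, the near-copy of Slfn8, measured 5.21, 6.39 and 6.62 FPKM in wild-type controls and 12.2, 11.5 and 12 with LPS+ATP, and 6.35, 4.84 and 4.97 and then 15.8, 15.5 and 17.7 in Nlrp3-/- cells. The response was smaller than that of Slfn8, 1.96-fold and 3.03-fold (log2 0.87 and 1.45, adjusted p = 7.885e-06 and 1.250e-07). The wild-type value passed 1 under upper-quartile and median-ratio scaling, at 1.11 and 1.16.

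Slfn3, the near-copy of Slfn4, moved least. It measured 3.38, 2.96 and 3.21 FPKM in wild-type controls and 4.97, 4.24 and 4.69 with LPS+ATP, and 2.21, 2.22 and 2.40 and then 6.24, 5.16 and 5.60 in Nlrp3-/- cells. The fold was 1.45 and 2.49 (log2 0.43 and 1.02, adjusted p = 1.991e-04 and 1.592e-07). The Nlrp3-/- call depended on 1 library, since the log2 difference was 0.96 without replicate 1 of the stimulated Nlrp3-/- group.

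The make-up of the family's signal shifted with stimulation. The 7 members together summed to 233 ± 3.37 FPKM in wild-type controls, 1241 ± 28.3 with LPS+ATP, 167 ± 0.891 in Nlrp3-/- controls and 876 ± 23.7 with LPS+ATP (SD, n = 3 each). With LPS+ATP the sum was 5.33 times that of controls in wild-type and 5.26 times in Nlrp3-/- cells. Slfn2 made up 68.8% of the sum in wild-type controls and 49.2% after LPS+ATP, and 70.2% and 53.4% in Nlrp3-/- cells. Slfn4 went from 0.781% to 21.5% in wild-type cells and from 0.776% to 12.9% in Nlrp3-/- cells. Slfn1 went from 2.65% to 12.2% and from 2.25% to 11.4%. The share of Slfn5 was lower after stimulation, at 17.7% and 9.50% in wild-type and 15.1% and 11% in Nlrp3-/- cells, although its own level was higher.

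**Figure D2:**
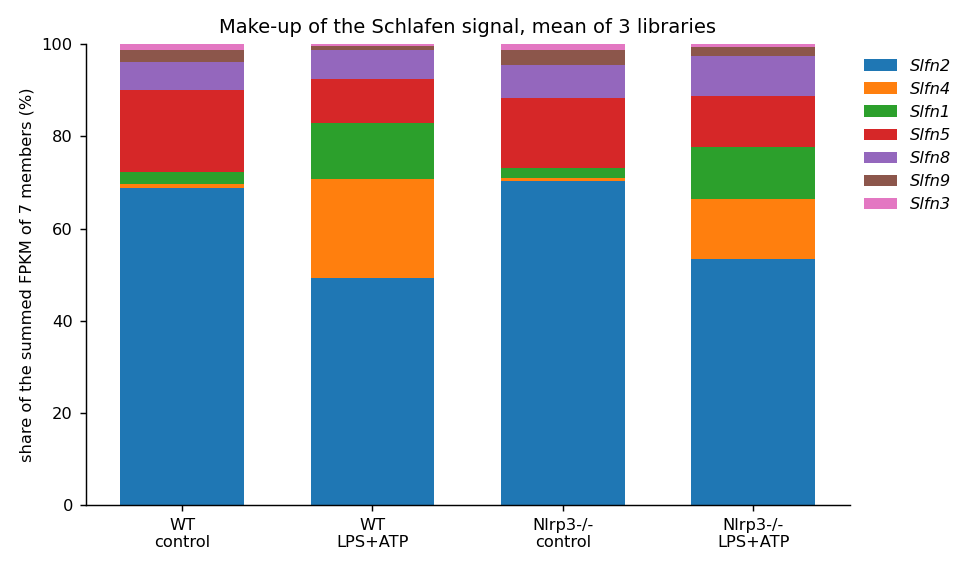
Share of each member in the summed FPKM of the 7 Schlafen genes (percent, mean of 3 libraries) in the 4 groups. Slfn2 takes 68.8% and 70.2% in the controls, and after LPS+ATP Slfn4 takes 21.5% in wild-type and 12.9% in Nlrp3-/- cells.

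The rank of the members changed accordingly. In wild-type controls the order of mean FPKM was Slfn2, Slfn5, Slfn8, Slfn1, Slfn9, Slfn3 and Slfn4, with Slfn1 and Slfn9 overlapping. In Nlrp3-/- controls Slfn9 stood above Slfn1 with no overlap, and the rest of the order was the same. With LPS+ATP the order was Slfn2, Slfn4, Slfn1, Slfn5, Slfn8, Slfn9 and Slfn3 in both genotypes. All neighbours in it were separate in wild-type cells, and in Nlrp3-/- cells Slfn1 and Slfn5 overlapped.

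Between genotypes the family was lower in Nlrp3-/- controls. The summed FPKM was 0.716 times that of wild-type controls. For 6 of 7 members the Nlrp3-/- control libraries were all below the wild-type ones, where 18.0% of all genes tested were, and only Slfn9 overlapped. No member was called by the rule with the fold limit, where 0.689% of genes were called lower and 6.02% higher. By adjusted p alone 5 of 7 were lower, where 14.5% of all genes tested were lower. On the log2(FPKM + 1) scale Slfn5 differed most, at 41.1 ± 1.29 and 25.1 ± 0.804 FPKM (SD, n = 3), a log2 difference of -0.69 (adjusted p = 1.627e-08). Slfn1 differed by -0.60 (adjusted p = 4.817e-05) and Slfn2 by -0.45 (adjusted p = 2.526e-08). The intermediate members differed by -0.35 (Slfn3, adjusted p = 0.00175) and -0.30 (Slfn4, adjusted p = 0.00232). Slfn8 at -0.26 (adjusted p = 0.0865) and Slfn9 at -0.15 (adjusted p = 0.239) did not pass the test. The order by ratio of mean FPKM was not the same. Slfn1 (0.606) was just below Slfn5 (0.612), and Slfn4 (0.711) and Slfn3 (0.715) were below Slfn2 (0.730).

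With LPS+ATP the members split by genotype. Slfn4, Slfn1, Slfn2 and Slfn5 were lower in Nlrp3-/- cells and Slfn3 and Slfn9 higher by adjusted p, where 12.6% of all genes tested were lower and 35.9% higher. These same 6 members had no overlap between genotypes (16.2% of all genes tested were lower with no overlap and 41.7% higher). Slfn4 was the only member called with the fold limit, by which 0.570% of genes were called lower. Its mean was 267 ± 18.3 FPKM in wild-type and 113 ± 1.58 in Nlrp3-/- cells (SD, n = 3), 2.37 times higher in wild-type cells, a log2 difference of -1.23 (SE 0.06, adjusted p = 4.035e-08). Slfn1 differed by -0.60 (adjusted p = 5.175e-05), Slfn2 by -0.38 (adjusted p = 1.210e-07) and Slfn5 by -0.29 (adjusted p = 2.526e-05). Slfn9 was higher by 0.42 (adjusted p = 0.00408) and Slfn3 by 0.24 (adjusted p = 0.0154). Across the other settings those last adjusted p-values reached 0.0742 for Slfn9 and 0.493 for Slfn3. The log2 difference of Slfn8 was -0.00, with a 95% interval of -0.26 to 0.25, which leaves room for a difference in either direction, and its sign turned under TPM and without replicate 3 of the stimulated wild-type group or replicate 2 of the stimulated Nlrp3-/- group (0.02, 0.12 and 0.10).

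**Figure D3:**
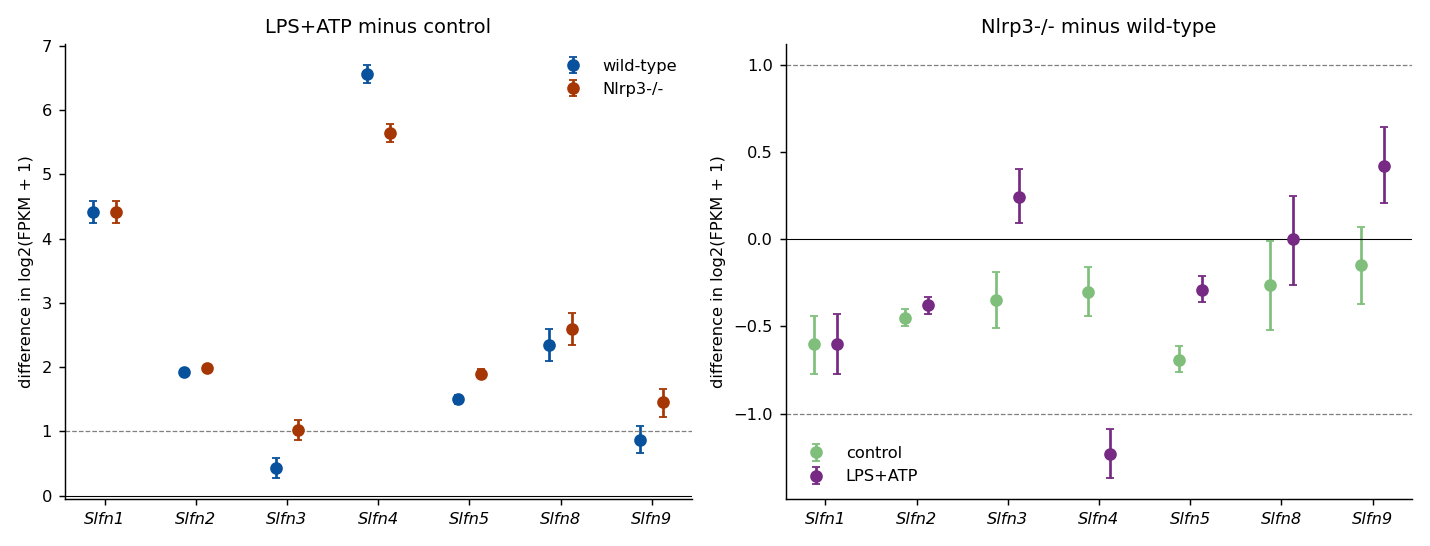
Fitted differences in log2(FPKM + 1) for each Schlafen member, LPS+ATP minus control in both genotypes (left) and Nlrp3-/- minus wild-type in both treatments (right), with 95% intervals and dashed lines at a difference of 1. Slfn4 is the one member beyond the line on the right, at -1.23 with LPS+ATP, and Slfn3 and Slfn9 lie below 0 in controls and above 0 with LPS+ATP.

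The marker values given above stand beside these genotype differences. In controls all 5 fibroblast markers, all 7 tested granulocyte markers and 2 of 4 monocyte markers were called higher in Nlrp3-/- cells, where 6.02% of all genes tested were, and with LPS+ATP 4 of 5, 4 of 7 and 2 of 4 were, where 4.48% of all genes were. The sums with LPS+ATP were 180 to 183 FPKM in wild-type and 890 to 905 in Nlrp3-/- cells for fibroblast markers and 92.1 to 108 and 419 to 447 for granulocyte markers. The monocyte list summed to 22.1 to 28.1 FPKM in wild-type and 85.4 to 102 in Nlrp3-/- controls, and to 81.2 to 84.3 and 160 to 218 with LPS+ATP. The macrophage list summed to 20074 to 21264 in wild-type and 19272 to 19518 in Nlrp3-/- controls, and to 11709 to 11771 and 11160 to 11420 with LPS+ATP. Most of that sum is the lysozyme gene Lyz2, with means of 18464 FPKM in wild-type and 17693 in Nlrp3-/- controls. Of the 9 macrophage rows, 4 were lower and 1 higher by adjusted p in Nlrp3-/- controls. Cd68 was 0.604 times its wild-type level there (1450 and 877 FPKM), Csf1r, the M-CSF receptor gene, 0.650 times (253 and 164) and Adgre1 0.777 times, whereas the complement gene C1qa was 1.52 times as high. With LPS+ATP the ratios were 0.762 for Cd68, 0.988 for Csf1r, 0.709 for Adgre1 and 1.48 for C1qa. The other macrophage markers stood between in controls, at 0.958 (Lyz2), 0.865 (Cd14), 1.05 (Mertk) and 0.916 and 0.878 (the Itgam rows). These control ratios span those of the Schlafen members in controls, from 0.606 (Slfn1) to 0.887 (Slfn9). With LPS+ATP the ratios of Slfn4 (0.423) and Slfn1 (0.658) lay below every marker ratio given for that treatment. In bulk RNA fewer cells of a type and less RNA per cell cannot be told apart, and the part of these cells in the Schlafen differences was not tested.

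The change with stimulation differed between genotypes for 4 of the 7 members by adjusted p, where 27.7% of all genes tested did, and for none once the fold limit was applied, where 2.15% did. The interaction, the change in Nlrp3-/- cells minus that in wild-type cells, was -0.93 for Slfn4 (SE 0.09, adjusted p = 2.207e-05). It was positive for Slfn3, at 0.59 (adjusted p = 0.00126), for Slfn9, at 0.57 (adjusted p = 0.0103), and for Slfn5, at 0.40 (adjusted p = 8.563e-05). Thus the 2 intermediate members, near-copies of each other, had interactions of opposite sign. For Slfn1 the estimate was 0.00 with a 95% interval of -0.23 to 0.24, for Slfn2 0.07 with -0.00 to 0.14, and for Slfn8 0.26 with -0.10 to 0.62. The Slfn4 interaction ranged from -1.05 to -0.77 over other settings and from -0.99 to -0.89 when any 1 library was left out.

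The interferon pathway around the family was read from lists written with earlier results of these data known. All 32 interferon-induced genes tested were called higher in wild-type and in Nlrp3-/- cells, beside 8.25% and 6.64% of all genes tested. Their median log2 difference was 3.28 and 3.49, larger than the median of the Schlafen members. Largest among them were Cxcl10 and Cxcl9, chemokines that draw T cells, at 7.30 and 6.85 in wild-type and 7.75 and 8.06 in Nlrp3-/- cells, followed by the antiviral enzyme gene Rsad2 at 6.34 in wild-type and Ifit1, which binds foreign RNA, at 6.2 in Nlrp3-/- cells. In controls 28 of the 32 were lower in Nlrp3-/- cells by adjusted p (14.5% of all genes tested) and 0 higher (33.3% of all genes), a median of -0.46, beside -0.35 for the Schlafen members. With LPS+ATP 11 were lower and 5 higher, beside 12.6% and 35.9% of all genes, a median of -0.02. Rsad2 (-1.23) and Cmpk2 (-1.18) were the 2 called lower there and Cxcl9 (1.37) the 1 called higher, beside 0.570% and 4.48% of all genes tested. In the interaction 24 of the 32 were positive and 1 negative by adjusted p, beside 14.7% and 13.0% of all genes tested.

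**Figure D4:**
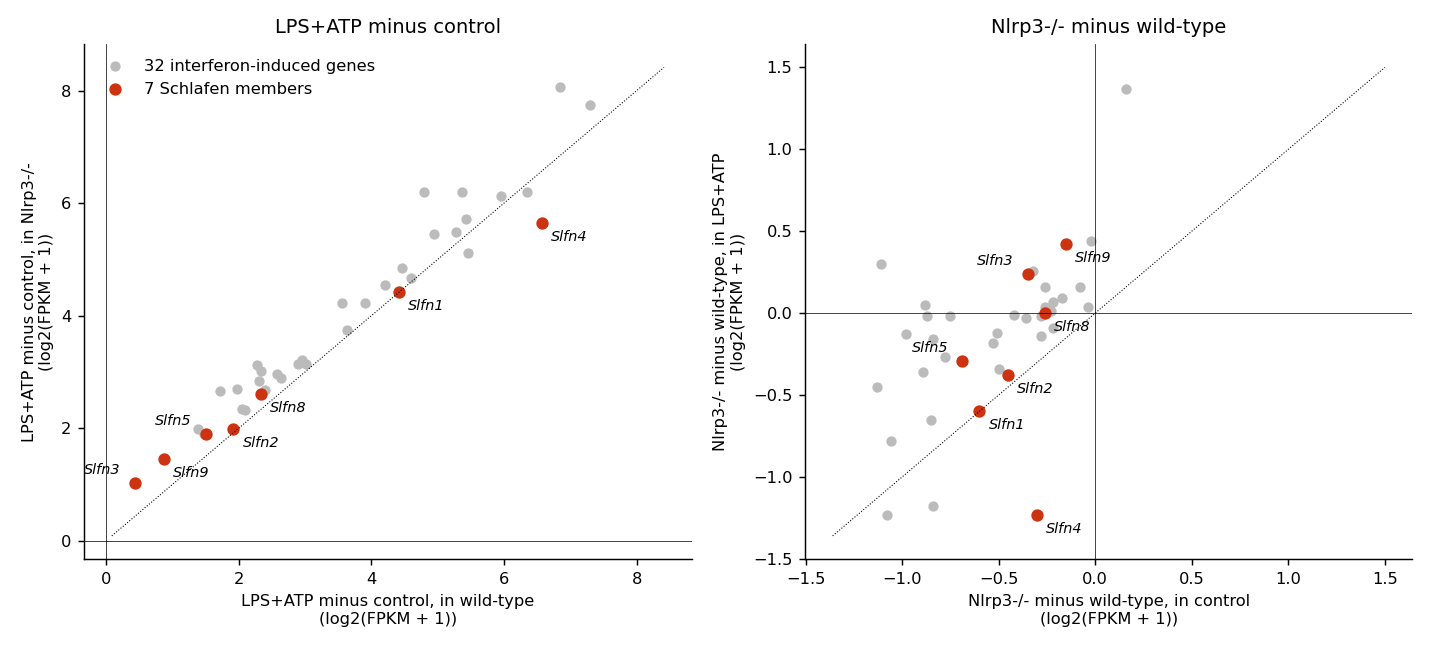
Differences in log2(FPKM + 1) of the 7 Schlafen members and 32 interferon-induced genes, LPS+ATP minus control in wild-type against Nlrp3-/- cells (left) and Nlrp3-/- minus wild-type in controls against LPS+ATP (right), with the line of equal values dotted. Slfn4 lies below the line on the left, at 6.57 and 5.64, and lowest of the members on the right, at -1.23, while Cxcl9 is the point at 1.37.

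Of 24 interferon signalling genes 23 were tested, and 7 were called higher and 1 lower in wild-type cells, 9 and 1 in Nlrp3-/- cells. Over all 12622 genes tested, 1041 (8.25%) were called higher and 1411 lower in wild-type cells, and 838 (6.64%) and 1036 in Nlrp3-/- cells. Irf7, the transcription factor that amplifies interferon production, rose from 10.3 ± 0.445 to 222 ± 4.57 FPKM in wild-type and from 5.08 ± 0.136 to 181 ± 4.52 in Nlrp3-/- cells (SD, n = 3). Socs1, a brake on JAK signalling, rose by 4.21 and 3.77 and Socs3 by 4.02 in wild-type cells on the log2 scale. The interferon-γ receptor gene Ifngr1 fell by 2.12 in wild-type and by 1.67 in Nlrp3-/- cells. No signalling gene was called between genotypes with the fold limit. Of all genes tested, 6.02% were called higher and 0.689% lower in controls, and 4.48% and 0.570% with LPS+ATP. By adjusted p alone 3 of the 23 were higher and 8 lower in Nlrp3-/- controls, where 33.3% and 14.5% of all genes tested were. With LPS+ATP 5 were higher and 10 lower, where 35.9% and 12.6% of all genes tested were. In controls Irf7 stood at 0.492 times its wild-type level and Socs3 at 2.01 times. Ifnb1, which encodes interferon-β, was below the filter, at 0.292 to 0.708 FPKM in wild-type and 0.676 to 0.737 in Nlrp3-/- cells with LPS+ATP.

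Other Schlafen loci followed in part. The transcribed pseudogene Slfn10-ps, which lies between Slfn8 and Slfn2 and shares 50-base stretches with Slfn8 and Slfn9, measured 7.46, 7.0 and 6.49 FPKM in wild-type controls and 16.6, 14.2 and 15.3 with LPS+ATP, and 3.71, 4.00 and 4.84 and then 8.92, 9.48 and 9.73 in Nlrp3-/- cells. It rose by 1.03 and 1.01 on the log2 scale and differed between genotypes by -0.63 in controls and -0.65 with LPS+ATP, the lower level being in Nlrp3-/- cells. Slfn14, which lies beyond Slfn3 outside the cluster and is best known from platelets and red cell precursors, was below the filter, at 0.330 to 0.407 FPKM in Nlrp3-/- controls and at most 0.0931 elsewhere. The erythroid marker list summed to 6.32 to 7.72 FPKM in those libraries and 0.271 to 0.404 in wild-type controls. Slfnl1, on chromosome 4, was listed at 0 in all but 1 library.

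The genes that flank the cluster did not rise with it as a block. Of 16 protein-coding genes within 300 kb, 10 were tested. Heatr9 was listed at 0 in the controls and had means of 5.64 FPKM in stimulated wild-type and 4.80 in stimulated Nlrp3-/- cells, and Rffl, a ubiquitin ligase gene, rose by 1.23 in wild-type cells. These were the 2 called higher in wild-type cells, where 8.25% of all genes tested were. In Nlrp3-/- cells Heatr9 was the 1 called higher, where 6.64% of all genes were. There 1700020L24Rik was the 1 called lower, at -1.40, where 1036 of 12622 genes were. The median over the 10 was -0.23 in wild-type and -0.13 in Nlrp3-/- cells. Between genotypes 1700020L24Rik was the 1 called gene, higher in Nlrp3-/- controls by 1.53, where 6.02% of all genes tested were called higher. With LPS+ATP none was called, where 4.48% of all genes were called higher and 0.570% lower.

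Genes with the pattern most like each member were found by the root-mean-square difference over the 12 libraries in log2(FPKM + 1), each gene centred on its wild-type controls. Slfn5 had the closest neighbour, the nuclear body gene Sp100, at 0.06, with Psme2b at 0.10 and Plek at 0.16. Slfn2 was closest to Lgals9 (0.10) and the lysosomal chloride transporter gene Clcn7 (0.11), then BC147527 (0.13). BC147527 was low, with means of 0.605 and 0.223 FPKM in wild-type and Nlrp3-/- controls and 4.75 and 3.98 with LPS+ATP. The 1 added before the log flattens such values, so closeness on this scale does not mean an equal fold. Slfn8 was closest to Gvin1 and Gm4070 (0.13 each) and Ddx58 (0.14), the last encoding the RNA sensor RIG-I. Slfn1 was closest to Phf11a (0.17), Mx2 (0.18) and Phf11b (0.20). Phf11a and Mx2 were low in controls too, at 1.48 and 1.39 FPKM in wild-type and 0.600 and 0.668 in Nlrp3-/- cells. Mx2 rose 31.0-fold and 56.8-fold, against 24.6-fold and 26.7-fold for Slfn1. For the smaller responses, Slfn3 was closest to the proton pump gene Atp6v0b (0.12), Tbc1d13 and Pik3r6 (0.13 each), and Slfn9 to Cox18 and Creld2 (0.14 each) and the endoplasmic reticulum chaperone gene Hspa5 (0.15). Slfn4 had no gene as close, with Isg15 at 0.37, Ms4a4c at 0.38 and Gbp5 at 0.42.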

How the data were processed

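The deposited table holds FPKM values made by the authors from their reads. The submitters' processing notes name DESeq2 1.24.0 and the GRCm39 build, and the aligner and annotation are not given in the sources used here. Coordinates, transcripts and coding sequences came from GENCODE M21 and promoters from RefSeq, both on GRCm38. Of 55335 genes, 12622 reached 1 FPKM in at least 3 libraries. After a pseudocount of 1 and a log2 transform, these entered limma 3.58.1 under R 4.3.3, fitted as 4 group means with a variance trend, and p-values were adjusted over them by Benjamini-Hochberg. Such differences understate the change of low genes between groups. An interaction sets 1 such difference against another, so it can come out too large as well as too small. For Slfn4 it was -0.93 here and -0.77 at its weakest over other settings. On simulated data for stimulation in wild-type cells, with 11855 genes, limma recovered 95.5% of 200 genes given a log2 change of 1.5 and made 2 false calls. Total read depth is unknown. Groups came from the labels. Alternatives were the pseudocount, the filter, the scaling, TPM, the fold limit, the replicate block and leaving out each library. Named genes were the members, other Schlafen loci, Nlrp3, flanking genes (in the text only those called), each member's 3 nearest genes and the 3 interferon genes per list and stimulation with the largest rise or fall, of which 1 is not reported here. Cmpk2, Ifnb1, Xist, Ddx3y and the single macrophage markers fall outside this rule and were chosen after their values were seen. Sequences were handled in Python 3.11.15. The members, lists and tests were chosen with earlier results of these data known.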

Additional observations from a re-analysis of the deposited data

Results flagged for a closer look

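The response to LPS+ATP differed between Nlrp3-/- and wild-type macrophages for 4 Schlafen members by limma's interaction term. For Slfn4 the interaction was -0.93 on the log2(FPKM + 1) scale (adjusted p = 2.207e-05), a rise of 147-fold in wild-type and 87.4-fold in Nlrp3-/- cells. For Slfn3 it was 0.59 (adjusted p = 0.00126), for Slfn9 0.57 (adjusted p = 0.0103) and for Slfn5 0.40 (adjusted p = 8.563e-05). None of the 4 reached a difference of 1, and 27.7% of all genes tested passed the interaction by adjusted p. In all 4 the stimulated libraries of the genotypes did not overlap, as was so for 16.2% of all genes tested with lower and 41.7% with higher values in Nlrp3-/- cells.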

How the results depend on the processing

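The number of members called in both stimulation comparisons stayed within 1.5 times the main count under all alternatives run, but it did change. In wild-type cells Slfn9 gained a call under upper-quartile and median-ratio scaling, and all 7 members were called with no fold limit. In Nlrp3-/- cells Slfn3 lost its call without stimulated replicate 1. With no fold limit, 5 members were called between genotypes in controls, 6 with LPS+ATP and 4 in the interaction, against 0, 1 and 0. Under upper-quartile and median-ratio scaling 1 member, Slfn4, was called in the interaction, at -1.02 and -1.05. Of the members' log2 differences, 713 alternatives kept direction and call, 10 turned sign, 4 gained a call and 1 lost it. The sign turned for the Slfn1 interaction at -0.08 under upper-quartile and -0.07 under median-ratio scaling, and at -0.06, -0.00, -0.08 and -0.02 without wild-type control replicate 1, stimulated wild-type replicate 2, Nlrp3-/- control replicate 1 and stimulated Nlrp3-/- replicate 3, with a range of -0.08 to 0.08 when any 1 library was left out. It turned for the Slfn2 interaction at -0.00 under upper-quartile scaling, and for the Slfn8 genotype difference with LPS+ATP at 0.02 under TPM, 0.12 without stimulated wild-type replicate 3 and 0.10 without stimulated Nlrp3-/- replicate 2, with a leave-one-out range of -0.10 to 0.12. None of these values passed the test under any setting, and the cause was not tested. The replicate numbers did not pair the libraries (correlation of same-numbered residuals -0.06 to 0.05 over 18 pairs), and with the replicate block the calls were 5, 7, 0, 1 and 0, as without it. Median-ratio scaling moved the median of all genes by 0.24 and 0.23 in the stimulation comparisons and by -0.15 and -0.17 between genotypes, and the split of higher to lower calls went from 1041 and 1411 to 1388 and 895 in wild-type cells, from 838 and 1036 to 1091 and 598 in Nlrp3-/- cells, from 760 and 87 to 571 and 146 in controls and from 565 and 72 to 430 and 125 with LPS+ATP. Upper-quartile scaling gave 1300 and 968, then 1001 and 735, for the stimulation comparisons. With a pseudocount of 0.1 the counts over all genes were 3702, 2847, 1428, 1406 and 634, against 2452, 1874, 847, 637 and 271. A filter of 5 FPKM gave 515 for genotype in controls, TPM gave 1285, 1175 and 501 for the last 3 comparisons, and no fold limit gave 9641, 9383, 6035, 6124 and 3494. The interferon-induced genes called between genotypes in controls were 9 with the pseudocount of 0.1, 7 with TPM, 9 with median-ratio scaling and 28 with no fold limit, against 4, and the signalling genes 2, 0, 1 and 11, against 0. The summed FPKM of the members moved by more than 1 SD in 11 alternatives of scaling. Its ratio of stimulated to control ranged from 5.33 to 6.65 in wild-type and from 5.26 to 6.47 in Nlrp3-/- cells, and that of Nlrp3-/- to wild-type from 0.623 to 0.719 in controls and from 0.607 to 0.717 with LPS+ATP.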
